A study of Homo sapiens with 4 samples.

Results

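Expression of the 7 genes that set the threshold for mitochondrial apoptosis was followed in LNCaP-derived prostate cancer cells with and without induction of NFκB (AD)-MBD. The 4 survival genes were BCL2, BCL2L1, BCL2L2 and MCL1, and the 3 effectors were BAX, BAK1 and BOK. Members were taken by gene symbol from the RefSeq transcripts that the array assigns to its probes, which gave 9 probes for 7 of the 19483 genes named on the array.

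LNCaP is an androgen-responsive line of luminal type from a human prostate cancer. Each of the 2 lines used here had been stably transfected in LNCaP with a Tet repressor (TR9 or TR15) and then with NFκB (AD)-MBD, a fusion of the NFκB transactivation domain with a methyl-CpG-binding domain under a tetracycline-regulated promoter, to give TR9_MeTA14 and TR15_MeTA5. In the MeTA-array experiment, RNA from each line without (-Tet) or with (+Tet) 4 days of tetracycline was hybridised to 1 one-colour Agilent array, so that each condition had 1 array and the 4 arrays lay on 1 slide. The -Tet cells carried the same 2 transgenes as the +Tet cells. No array of tetracycline-treated cells that lacked NFκB (AD)-MBD was used here, so that the drug and the fusion protein cannot be told apart. Whether a line grew from a single cell is not given in the sources used here.

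Proteins of the BCL2 family meet at the outer mitochondrial membrane. BAX and BAK1, once activated, form pores that release cytochrome c. BCL2, BCL2L1 (Bcl-xL), BCL2L2 (Bcl-w) and MCL1 hold them in check by binding them or the BH3-only proteins that trigger them. BOK is a related effector that is less dependent on the survival proteins, and its abundance is controlled by degradation. The balance of both classes is a known setting point of drug and androgen responses in prostate cancer, and it is governed at the protein level as well as by transcription.

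Between 20563 and 24217 of 34127 probes were well above background on an array, and the 75th percentile of probe signal, to which each array was scaled, lay between 367 and 777. The 5 luminal prostate markers read here (KLK3, KLK2, TMPRSS2, FOLH1, HOXB13) were well above background on all 4 arrays, and neither basal marker (KRT5, KRT14) was on any. Of 3 stromal markers only COL1A1 was well above background. The leukocyte markers PTPRC and CD3E read between 23.9 and 145. These signals also counted as well above background, except that of CD3E in TR15_MeTA5 +Tet. The summed luminal signal was 227257 without and 86178 with tetracycline in TR9_MeTA14, and 183526 and 168692 in TR15_MeTA5, with a median log2 fold change over the 5 markers of -1.95 in TR9_MeTA14 and -0.69 in TR15_MeTA5. The part of this shift in the results on the 7 genes was not tested, and in a bulk extract fewer cells of a type and less RNA per cell cannot be told apart. One probe of RELA, an NFκB subunit, read 660 without and 4658 with tetracycline in TR9_MeTA14, and 468 and 2085 in TR15_MeTA5, while a second was 1.22-fold higher in TR9_MeTA14 and 1.12-fold lower in TR15_MeTA5 after scaling. Of 2 probes of MBD2, which encodes a methyl-CpG-binding protein, 1 was at least 8.43-fold higher in TR9_MeTA14 and 5.84-fold higher in TR15_MeTA5, and the other was 2.43-fold and 1.41-fold lower. Whether any of them reads the construct was not tested.

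With tetracycline, the survival genes other than BCL2 stayed within 0.18 of their uninduced level on the log2 scale in TR9_MeTA14, whereas the effectors parted. BOK was 2.71-fold and BAK1 1.92-fold higher there, while BAX was 2.07-fold lower and BCL2 3.85-fold lower, the latter by a bound given below. In TR15_MeTA5 no member differed by 2-fold, the cut-off used by the study. The values below are processed signals in arbitrary units, listed first for TR9_MeTA14 (-Tet, then +Tet) and then likewise for TR15_MeTA5, and fold changes were taken after division by each array's 75th percentile. Because that percentile was 1.26-fold higher on the +Tet array in TR9_MeTA14 and 1.48-fold higher in TR15_MeTA5, a signal can be larger with tetracycline while its scaled value is smaller. The only replicate error is technical, a standard deviation (SD) of 0.09 for a log2 ratio of 2 single spots. It comes from probes printed 10 times on each array, with spots well above background, and is too small for BCL2.

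**Figure D1:**
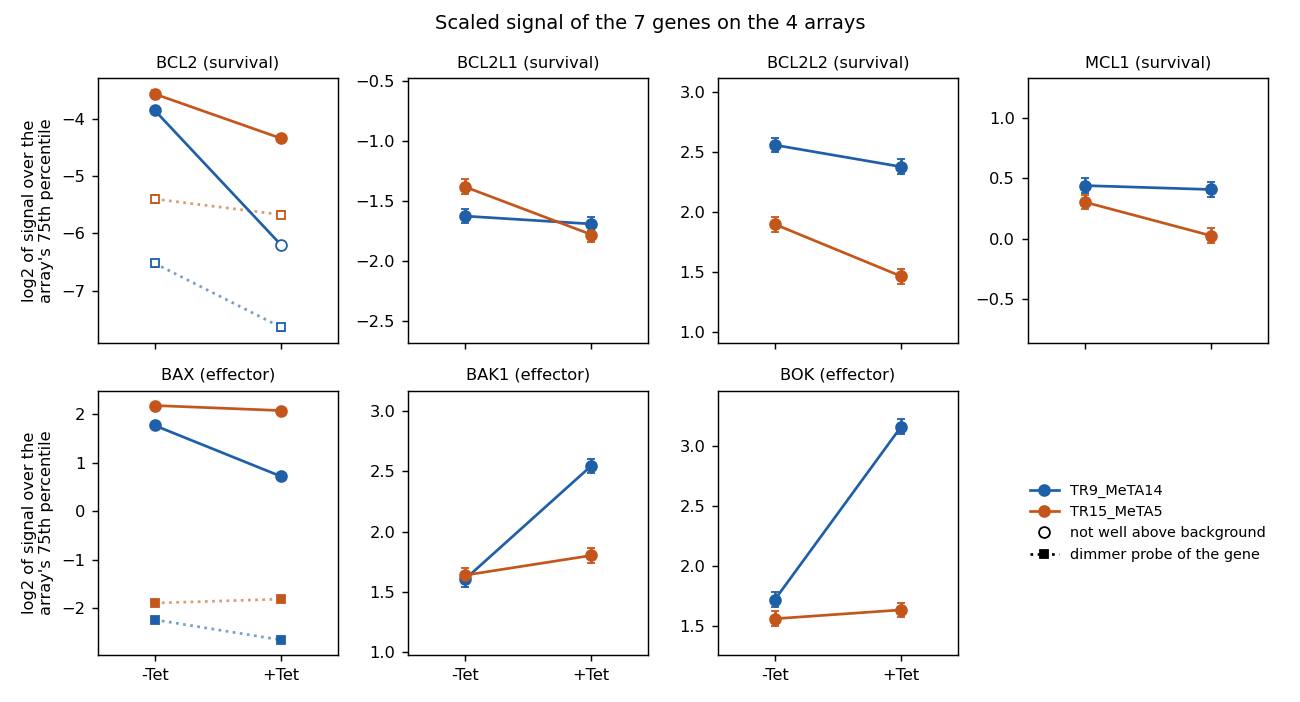
Scaled signal of each gene without and with tetracycline, as log2 of the signal over the 75th percentile of its array (1 array per point, error bars ± the technical SD of a single spot, axis range set separately for each gene). The same bar, from 10-spot probes well above background, is drawn for every gene. It is too small for BCL2, whose 10-spot probe had spot SDs of 0.44 to 0.54, and too wide for the 10-spot means of BCL2L1 and BAX. Open symbols were not well above background and dotted lines are the dimmer probe of BCL2 and of BAX. BOK and BAK1 were highest on the TR9_MeTA14 +Tet array and BAX and BCL2 were lowest there.

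BCL2, the founding member of the family, blocks the release of cytochrome c. The probe that stands for it (A_33_P3355185, 1 spot) read 42.6 ± 5.62, 10.5 ± 3.43, 30.9 ± 4.71 and 26.7 ± 5.49 (± the error given by Feature Extraction). The TR9_MeTA14 +Tet value was not well above background and was the lowest of the 4. With that value set at the lowest signal well above background on its array, BCL2 was 3.85-fold lower with tetracycline in TR9_MeTA14. In TR15_MeTA5 it was 1.71-fold lower (log2 fold change -0.77). The bound in TR9_MeTA14 leaves out the error of the spots. It also moved with scaling, to 3.51-fold with spike-in probes and 3.69-fold with the median. With normexp background correction (offset 50) and quantile normalisation together, the value in TR9_MeTA14 was 1.49-fold lower. In TR15_MeTA5 BCL2 was then 1.25-fold lower, and it was 1.26-fold lower with spike-in scaling and 2.03-fold lower with quantile normalisation alone. A second BCL2 probe (A_23_P352266) with 10 spots was not well above background in any kept spot of any array, at mean signals from 3.90 to 10.6, and gives no fold.

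BCL2L1 encodes Bcl-xL, the survival protein that guards both BAX and BAK1. Its probe (A_23_P210886, 10 spots) read 200.5, 241, 141 and 158, with spot-to-spot SDs of 0.04 to 0.10 on the log2 scale. After scaling, the TR15_MeTA5 -Tet array was highest at 38.5% of the 75th percentile, and the other 3 arrays, between 29.2% and 32.5%, did not differ from their neighbours in rank by more than 2 technical SDs. That SD is for single spots and is wider than the spot error of a mean over 10 spots. The log2 fold change with tetracycline was -0.07 in TR9_MeTA14 and -0.40 in TR15_MeTA5, and scaling on spike-in probes turned both signs, to 0.07 and 0.04.

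BCL2L2, or Bcl-w, is a close relative of Bcl-xL. Its probe (A_23_P418373) read 3630, 4026, 1364 and 1494. Both TR9_MeTA14 arrays (588% and 518% of the 75th percentile) lay above both TR15_MeTA5 arrays (372% and 276%), with all 3 gaps over 2 technical SDs, a spread that leaves out differences between cultures and hybridisations. The line effect did not pass the adjusted threshold in limma (adjusted p = 0.298), which 0 of 22819 probes on the array passed. With tetracycline the log2 fold change was -0.18 in TR9_MeTA14 and -0.43 in TR15_MeTA5, the latter 0.01 with spike-in scaling.

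MCL1 encodes a short-lived survival protein whose amount depends on constant synthesis. Its probe (A_24_P336759) read 838, 1030, 452 and 551. On the scaled values the TR15_MeTA5 +Tet array was lowest, at 102% of the 75th percentile, and the other 3 arrays (123% to 136%) did not differ from their neighbours in rank by more than 2 technical SDs. The log2 fold change was -0.03 in TR9_MeTA14, which lay between 0.01 and 0.10 with median scaling, spike-in scaling, the percentile over spots or normexp with quantile normalisation, and -0.28 in TR15_MeTA5, which turned to 0.16 with spike-in scaling.

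**Figure D2:**
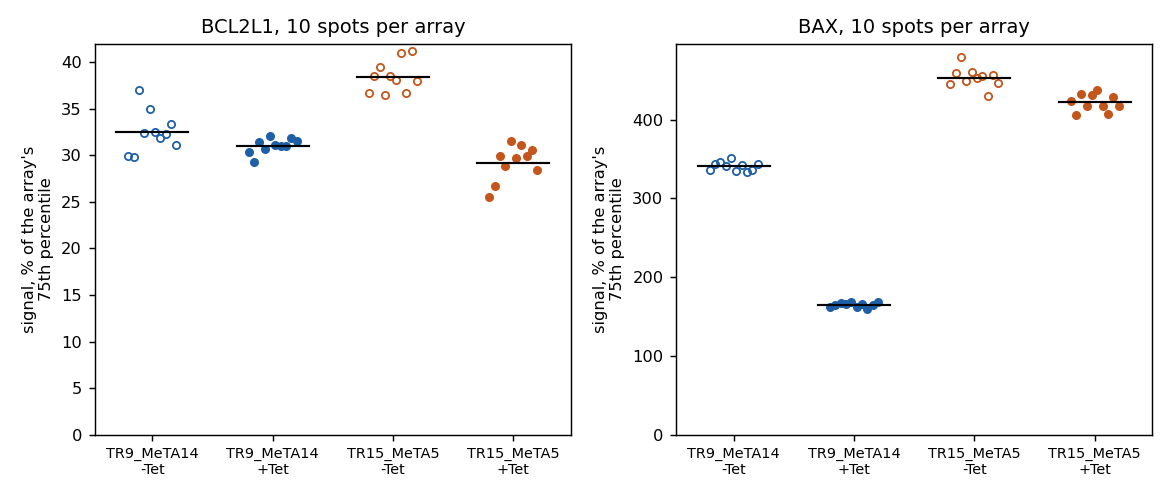
Each of the 10 spots of the BCL2L1 and BAX probes on the 4 arrays, as a percentage of the 75th percentile of the array (y axis from 0, bars at the geometric mean, open symbols -Tet, filled symbols +Tet). The BAX spots of TR9_MeTA14 +Tet lie below every other BAX spot, while the BCL2L1 spots of both TR9_MeTA14 arrays overlap.

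BAX, the cytosolic effector that moves to mitochondria when activated, had its lowest signal in TR9_MeTA14 +Tet. Its brighter probe (A_23_P208706, 10 spots) read 2106, 1280, 1663 and 2288. In TR9_MeTA14 the single spots ran from 2059 to 2170 without and from 1237 to 1311 with tetracycline, so that they did not overlap even before scaling. After scaling BAX was 2.07-fold lower in TR9_MeTA14 (log2 fold change -1.05) and 1.07-fold lower in TR15_MeTA5 (-0.10, but 0.34 with spike-in scaling). The value in TR9_MeTA14 sat at the cut-off, just outside it at 1.98-fold with median scaling, 1.88-fold with spike-in scaling and 1.996-fold with the percentile taken over spots. The dimmer BAX probe (A_33_P3341144), drawn from another transcript record, read 131, 124, 99.0 and 155 and gave log2 fold changes of -0.42 and 0.08, so the mean over both probes was 1.66-fold lower in TR9_MeTA14.

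BAK1, the effector that resides in the outer mitochondrial membrane, had its highest value on the same array where BAX was lowest. Its probe (A_23_P145357) read 1874, 4534, 1140 and 1889. The scaled values of the other 3 arrays (303% to 348% of the 75th percentile) did not differ from their neighbours in rank by more than 2 technical SDs, and TR9_MeTA14 +Tet stood at 584%. BAK1 was thus 1.92-fold higher with tetracycline in TR9_MeTA14, under the cut-off, and 1.12-fold higher in TR15_MeTA5. In TR9_MeTA14 it passed the cut-off at 2.01-fold with median scaling and 2.11-fold with spike-in scaling.

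BOK was the member with the largest increase. Its probe (A_23_P253029) read 2033, 6939, 1082 and 1684. The 3 lower arrays, at 295% to 329% of the 75th percentile, again did not differ from their neighbours in rank by more than 2 technical SDs, and TR9_MeTA14 +Tet stood at 894%. BOK was 2.71-fold higher with tetracycline in TR9_MeTA14 (log2 fold change 1.44) and 1.05-fold higher in TR15_MeTA5 (0.07). Of 15079 genes compared in TR9_MeTA14, 11.9% had a higher fold change than BOK and 17.7% a higher one than BAK1, and 86.0% a higher one than BAX.

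The 250 bases upstream of an annotated start are shown for the 3 effectors, since the fusion protein was built to bind methylated CpG sites and the effectors differed in direction in TR9_MeTA14. Sequences are from RefSeq (GRCh38.p14), read 5′ to 3′ on the strand of the gene, and capitals mark each CpG. The BAX window is chr19:48954625-48954874 (plus strand), that of BAK1 is chr6:33580277-33580526 (minus strand) and that of BOK is chr2:241558495-241558744 (plus strand).
BAX: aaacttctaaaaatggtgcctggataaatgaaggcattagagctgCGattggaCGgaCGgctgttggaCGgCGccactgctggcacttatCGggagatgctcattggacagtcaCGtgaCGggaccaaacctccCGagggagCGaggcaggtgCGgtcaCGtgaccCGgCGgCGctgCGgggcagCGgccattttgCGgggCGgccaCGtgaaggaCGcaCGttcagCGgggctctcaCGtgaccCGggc
BAK1: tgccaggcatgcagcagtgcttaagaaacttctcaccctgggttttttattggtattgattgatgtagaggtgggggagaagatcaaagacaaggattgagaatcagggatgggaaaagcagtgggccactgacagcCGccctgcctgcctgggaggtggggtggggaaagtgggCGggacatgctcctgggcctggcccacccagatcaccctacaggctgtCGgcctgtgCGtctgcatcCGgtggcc
BOK: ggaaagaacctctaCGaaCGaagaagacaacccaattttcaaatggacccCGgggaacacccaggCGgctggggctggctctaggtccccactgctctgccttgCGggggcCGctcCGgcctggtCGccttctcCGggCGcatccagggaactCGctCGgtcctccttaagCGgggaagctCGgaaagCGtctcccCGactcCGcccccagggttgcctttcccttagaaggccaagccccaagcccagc

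The windows differed in CpG content. BAX held 25 CpG sites, BOK 17 and BAK1 5, against a median of 11 over the 35116 windows of the same length in the RefSeq table. Of the survival genes, BCL2 held 24 and the 2 starts of BCL2L1 held 17 and 12, and 5 of 7 members were in the table. The letters CACGTG, which read the same on both strands, occurred 4 times in the BAX window and in no other member's, where 6.34% of all windows held them at least once and 0.0797% at least 3 times. The NF-kB consensus was in none of these windows on either strand and in 9.96% of all. Methylation at these sites was not analysed here.

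**Figure D3:**
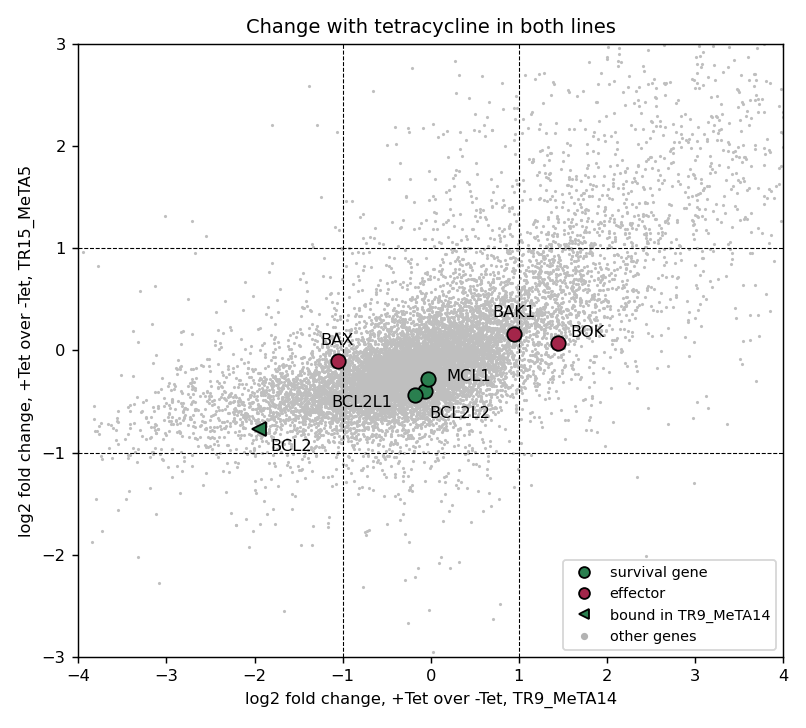
Log2 fold change with tetracycline in TR9_MeTA14 (x axis) and TR15_MeTA5 (y axis) for all genes compared in both lines (grey, those beyond the axes not drawn) and the 7 members, with dashed lines at 2-fold. BOK lies past 2-fold to the right and BCL2 (a bound, triangle) and BAX to the left, and no member passes 2-fold in TR15_MeTA5.

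In TR9_MeTA14, 1 of the 7 members was at least 2-fold higher with tetracycline, BOK, where 16.8% of all genes compared were. BCL2, by its bound, and BAX, 2 of 7, were at least 2-fold lower, where 15.1% of all genes were. In TR15_MeTA5, 0 of 7 were at least 2-fold higher and 0 of 7 lower, against 9.8% and 2.22% of 14343 genes. Counts of 0 to 2 among 7 lie near the shares of all genes and say nothing particular of the members. In TR15_MeTA5, 5.05% of genes had a lower fold change than BCL2, and in TR9_MeTA14 its fold change is a bound and has no exact rank.

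The survival class lay below the effector class in both lines. Its median log2 fold change was -0.12 against 0.94 for the effectors in TR9_MeTA14, where the median of all genes compared was -0.06. In TR15_MeTA5 the medians were -0.42 and 0.07, with -0.16 over all genes, and the spike-in scaling added 0.44 to each of them. The difference of -1.07 in TR9_MeTA14 and -0.49 in TR15_MeTA5 cannot be altered by a factor common to an array, and over the alternatives it ranged from -1.12 to -1.01 and from -0.56 to -0.47. The effector median was the value of BAK1 in TR9_MeTA14 and that of BOK in TR15_MeTA5. The survival median lay between BCL2L1 and BCL2L2 in both lines, so BCL2 and BAX entered the medians only by rank. The classes were not uniform, however. In TR9_MeTA14 BAX minus BCL2L1 was -0.98 on the log2 scale, while BAK1 minus BCL2L1 was 1.01 and BOK minus BCL2L1 was 1.51. In TR15_MeTA5 the same differences were 0.29, 0.56 and 0.47, and each effector there lay above each survival gene, by 0.18 (BAX against MCL1) to 0.94 (BAK1 against BCL2).

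Between the lines the log2 fold changes of TR15_MeTA5 minus those of TR9_MeTA14 were -1.37 for BOK, -0.78 for BAK1 and 0.94 for BAX. For the survival genes they were 1.17 for BCL2, from its bound in TR9_MeTA14, and between -0.33 and -0.25 for BCL2L1, BCL2L2 and MCL1. With 1 array per condition this difference could not be tested. Without tetracycline 0 of 7 members were at least 2-fold higher in TR15_MeTA5 than in TR9_MeTA14, and 0 of 7 were lower. Of all genes 8.19% were higher and 5.18% lower. With spike-in scaling 4 of 7 were lower, where the median of all genes stood at -0.92 on the log2 scale. The share of all genes under that scaling is not given here. BCL2L2 was 1.58-fold lower in TR15_MeTA5, and 3.27-fold lower with spike-in scaling. BAX was 1.33-fold higher, but 1.56-fold lower with spike-in scaling, which moved the median of all genes in this comparison from 0.12 to -0.92 on the log2 scale.

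Fitted over both lines with limma, in which the lines serve as replicates and 1 residual degree of freedom remains, 0 of 7 members passed a Benjamini-Hochberg adjusted p of 0.05 for tetracycline, where 2.53% of 22819 probes did. At an unadjusted p under 0.05 there was 1, BCL2, where 19.3% of probes were. Its fitted log2 fold change was -1.56 ± 0.53 (SE, limma adjusted p = 0.245), with the TR9_MeTA14 +Tet signal entered as read although it was not well above background. For BAX the fit gave -0.58 ± 0.34 (limma adjusted p = 0.386), for BAK1 0.55 ± 0.31 (limma adjusted p = 0.371) and for BOK 0.76 ± 0.41 (limma adjusted p = 0.361). BCL2L1, BCL2L2 and MCL1 were fitted at -0.23 ± 0.28, -0.31 ± 0.25 and -0.16 ± 0.26. For the line effect limma called 0 of 7 members after adjustment, and 0 of all 22819 probes. With an unadjusted p under 0.05 there was 1 member, BCL2L2 (log2 difference -0.79 ± 0.25, limma adjusted p = 0.298), where 15.9% of probes were.

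**Figure D4:**
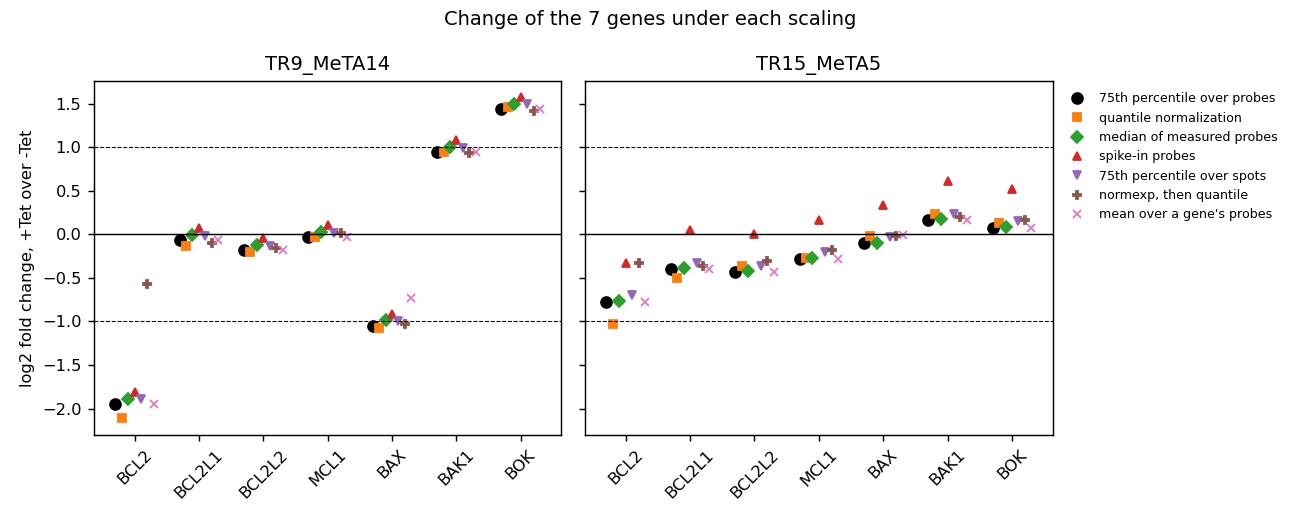
Log2 fold change of the 7 genes with tetracycline (y axis) in TR9_MeTA14 and TR15_MeTA5 under each way of scaling or summarising the arrays (symbols), with dashed lines at 2-fold. In TR9_MeTA14 BOK and BAK1 stay above 0 and BAX and BCL2 below it, with BCL2 at -0.57 after normexp and quantile normalisation, and spike-in scaling lifts every gene in TR15_MeTA5.

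Spike-in scaling moved the median of all genes in TR15_MeTA5 from -0.16 to 0.28, and in TR9_MeTA14 from -0.06 to 0.07, by adding 1 constant to every gene of a line.

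The rest of the mitochondrial pathway was read from 5 lists with 36 genes. In TR9_MeTA14, 4 of 34 genes compared were at least 2-fold higher and 5 lower, where 16.8% and 15.1% of all genes were. In TR15_MeTA5, 2 of 33 were higher and 0 lower, against 9.8% and 2.22%. Over both lines limma called 0 of 33 after adjustment and 6 at an unadjusted p under 0.05, where 19.3% of all probes were.

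Among the 8 BH3-only genes, which encode the triggers that the survival proteins capture, 3 were at least 2-fold higher and 2 lower in TR9_MeTA14, against 2 and 0 in TR15_MeTA5, with median log2 fold changes of 0.78 and -0.01. The shares of all genes were 16.8% and 15.1% in TR9_MeTA14 and 9.8% and 2.22% in TR15_MeTA5. BIK and HRK were those higher in both lines, at log2 fold changes of 1.72 and 1.48 for BIK and 1.40 and 2.61 for HRK. PMAIP1 (Noxa), a partner of MCL1 above all, read 929, 50.6, 352 and 297, a single low value in TR9_MeTA14 +Tet. It was 23.1-fold lower there and 1.75-fold lower in TR15_MeTA5 (limma adjusted p = 0.252). BMF (log2 fold change 1.33) and BBC3 (-1.24), named after their values were seen, were the other BH3-only genes past 2-fold in TR9_MeTA14. BBC3 (Puma), a trigger of BAX and BAK1, lay on the side of BAX and opposite to BAK1 in TR9_MeTA14, and in TR15_MeTA5 it was at 0.04. A link between these genes was not tested.

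No other BCL2 relative of the 7 compared in TR9_MeTA14 and the 6 compared in TR15_MeTA5 differed by 2-fold on the probe that stands for it. Among all genes 16.8% were higher and 15.1% lower in TR9_MeTA14, and 9.8% and 2.22% in TR15_MeTA5. A dimmer probe of BCL2L13 was 2.18-fold lower in TR9_MeTA14, where its brightest was 1.05-fold lower. The largest mean differences there were those of BNIP3L, a mitophagy receptor, at -0.30 and -0.81, and of BCL2L15 at -0.64 and -0.23. Among the 6 membrane partners 1 was at least 2-fold lower in TR9_MeTA14 and 0 in TR15_MeTA5, where 15.1% and 2.22% of all genes were. This was VDAC1, a channel of the outer membrane, which read 18546, 6696, 14267 and 13418 and was 3.48-fold lower in TR9_MeTA14 and 1.57-fold lower in TR15_MeTA5, and its dimmer probe gave 4.01-fold and 1.63-fold. TMBIM6 (Bax inhibitor 1) was at -0.52 and -0.53.

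Downstream of the pore, 1 of 7 genes compared passed 2-fold in each direction in TR9_MeTA14, and 0 did in TR15_MeTA5. The shares of all genes were 16.8% higher and 15.1% lower in TR9_MeTA14, and 9.8% and 2.22% in TR15_MeTA5. CYCS, cytochrome c itself, read 8547, 3088, 4427 and 4609 and was 3.48-fold lower in TR9_MeTA14 and 1.42-fold lower in TR15_MeTA5, and its other 2 probes were also lower in both lines. A dimmer probe of XIAP, an inhibitor of caspases named after its values were seen, was at a bound of -2.14 in TR15_MeTA5. It was not well above background there with tetracycline, and the brightest XIAP probe was at -0.24. CASP9, the protease that the apoptosome activates, was 2.30-fold higher in TR9_MeTA14 and 1.04-fold higher in TR15_MeTA5. Of the 6 regulators of member turnover 1 was at least 2-fold lower in TR9_MeTA14, where 15.1% of all genes were. This was HUWE1, a ubiquitin ligase of MCL1, at -1.02, with -0.21 in TR15_MeTA5 (-1.59 and -0.44 on its dimmer probe). BAG1, a BCL2-binding cochaperone, was 1.996-fold lower in TR9_MeTA14 and 1.49-fold lower in TR15_MeTA5. As for the members, spike-in scaling adds 0.44 to each log2 fold change in TR15_MeTA5 and 0.13 in TR9_MeTA14.

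**Figure D5:**
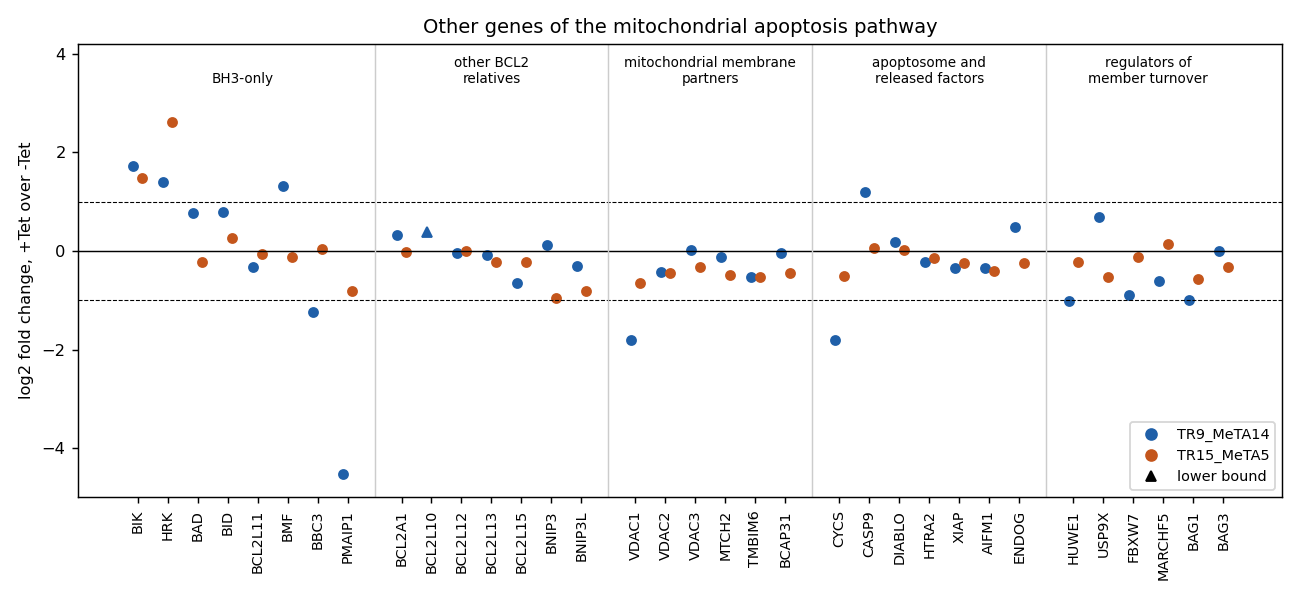
Log2 fold change with tetracycline (y axis) of each gene of the 5 pathway lists in TR9_MeTA14 (blue) and TR15_MeTA5 (orange), 1 array per condition, with dashed lines at 2-fold. BIK and HRK lie above 2-fold in both lines, and PMAIP1 at -4.53 is the lowest point.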

How the data were processed

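Cy3-labelled cRNA of 4 samples had been hybridised to 4 × 44K Agilent arrays, and spots were quantified with Feature Extraction (9.5.1 in the submitters' processing notes, 10.7.3.1 per the file headers). The deposited intensity per spot is the processed signal, corrected by the authors for background and not normalised between arrays. The deposited series table held the same values at all 44495 spots.

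Control and outlier spots (255 to 344 per array) were left out, spots of a probe were averaged as log2, and the 75th percentile over 34127 probes of each array was subtracted. RefSeq records named 25422 probes (74.5%) with 1 gene, and a gene was read from its brightest probe by mean signal. A fold change needed a signal well above background on at least 1 array, and was a bound where the other was not. Calls were made at 2-fold without a test, since each condition had 1 array. The pathway genes named were those at least 2-fold changed in the same direction in both lines, and at most the 2 largest mean changes per list. limma 3.58.1 (R 4.3.3) was fitted with line and tetracycline as terms and an intensity trend to the 22819 probes that at least 2 arrays had well above background, after a check on simulated data. Its p-values rest on how far the tetracycline change differed between the lines. That variance, with 1 residual degree of freedom, was drawn towards an intensity trend over all fitted probes. Spread between cultures of a line is not in it. The precision is limited by the number of arrays. The members and lists were chosen with earlier results of these data known. Of the luminal markers listed, 2 are not reported here. Alternatives covered scaling, background, filters, cut-offs and probe summaries.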

Additional observations from a re-analysis of the deposited data

How the results depend on the processing

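At a 1.5-fold cut-off 2 members were higher in TR9_MeTA14, 1 was lower in TR15_MeTA5 and 1 was lower in TR15_MeTA5 against TR9_MeTA14 without tetracycline, and at 3-fold 0 were higher and 1 was lower in TR9_MeTA14. Median scaling and spike-in scaling each gave 2 higher and 1 lower in TR9_MeTA14. The percentile over spots, normexp with quantile normalisation, the filter on all 4 arrays (which removes BCL2) and the mean over a gene's probes each gave 1 lower in TR9_MeTA14, in place of 2. Quantile normalisation gave 1 lower in TR15_MeTA5, BCL2 at -1.02. Spike-in scaling gave 4 lower between the lines without tetracycline, in place of 0, with the median of all genes there moving from 0.12 to -0.92. Shares of all genes under these cut-offs and scalings are not given here, so the counts say nothing particular of the members. The cause of the differences with normexp and with spike-in scaling was not tested. Scaling by a factor common to an array could not alter the difference between classes. Under the other alternatives it kept its direction in both lines. Of these, only quantile normalisation, normexp with quantile normalisation and the filter on all 4 arrays moved its value. BCL2 and BAX enter the class medians only by rank, so changes in their values that kept this rank could not move it. The count of 0 members passing limma's adjusted threshold held under every alternative run. Of 21 fold changes of single members, 21 moved by more than the technical SD with spike-in scaling, 9 with normexp, 7 with quantile normalisation, 2 with the mean over probes and 1 with plain ratios in place of bounds. With 1 array per condition no replicate could be left out. The limma fit pairs the arrays by line, and without that block 0 members passed and BCL2 had an adjusted p of 0.478 in place of 0.245. BCL2 lay close to background, where these arrays limit any fold change.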

Other observations

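Among 12698 genes well above background on all 4 arrays, those with a pattern of scaled signal closest to that of BOK were MFGE8, PCSK6 and ANPEP, at Euclidean distances of 0.08, 0.09 and 0.10 on the log2 scale over the 4 arrays. Their log2 fold changes with tetracycline were 1.48, 1.42 and 1.41 in TR9_MeTA14 and 0.18, 0.14 and 0.16 in TR15_MeTA5. The genes closest to BCL2L2 were GDAP2, EPHA1 and RRM2B, at distances of 0.05, 0.07 and 0.08, and each had, as BCL2L2 did, lower scaled signals in both TR15_MeTA5 arrays. Over 4 points such closeness is a description of these arrays.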
